A study of Homo sapiens with 10 samples.

Results

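Cancer-testis antigen genes are genes whose transcripts are normally found in male germ cells and which are expressed again in many tumours. The 63 genes examined here were taken from the 57955 genes of the files by their symbols alone, as the MAGEA, MAGEB, MAGEC, CTAG, PRAME, SSX, BAGE, XAGE, GAGE and CSAG families. Of these, 26 had at least 20 raw counts in some library and are described by their values, and the other 37 are counted as silent. Their mRNA was sequenced in 10 libraries, 1 from each of 5 melanoma lines (WM983A and WM983B, WM278 and WM1617, and WM902B) and 1 from the line made resistant to encorafenib plus binimetinib (E+BRes) from each of them. All lines carry mutated BRAF, encorafenib inhibits BRAF and binimetinib inhibits MEK. The sensitive lines are the original ones, grown in RPMI-1640 medium with serum, and no drug is named for them. The resistant lines were selected in both inhibitors with doses that went up from 1 nM to 200 nM in the course of 3 to 5 months, and 200 nM stayed in their medium, so resistance and the presence of drug cannot be told apart. WM983A, WM278 and WM902B came from primary tumours and WM983B and WM1617 from metastases, WM983A and WM983B from 1 patient and WM278 and WM1617 from another, so the 5 lines stand for 3 donors. No line had a second library in either state, and the values of 1 line therefore have no replicate check.

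In the testis these genes are active in spermatogonia and later germ cells, and in other tissues their promoters are kept silent, largely by DNA methylation. Most of them lie on the X chromosome in tandem families with nearly identical copies. Peptides of their proteins can be presented on HLA molecules and recognised by T cells, and melanoma is among the tumours in which they were first found. MAGE proteins bind RING-type ubiquitin ligases and change which proteins these mark for degradation, and PRAME is a substrate receptor of a CUL2 ubiquitin ligase and a repressor of retinoic acid receptor signalling.

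The 250 bases before the transcription start are shown for MAGEA3, MAGEA12, MAGEA4, MAGEC2, GAGE2A and PRAME, because their counts were high and they were on in different lines. They are RefSeq sequences of GRCh38.p14, written 5′ to 3′ on the strand of the gene, with each CG pair, the site of DNA methylation, in capitals.
MAGEA3, chrX:152698544-152698793, plus strand: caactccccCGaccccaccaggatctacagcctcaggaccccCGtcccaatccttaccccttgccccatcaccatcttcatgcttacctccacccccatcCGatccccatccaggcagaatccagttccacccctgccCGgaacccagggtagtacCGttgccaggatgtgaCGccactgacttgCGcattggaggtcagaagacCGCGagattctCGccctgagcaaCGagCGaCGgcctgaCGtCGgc
MAGEA12, chrX:152733507-152733756, plus strand: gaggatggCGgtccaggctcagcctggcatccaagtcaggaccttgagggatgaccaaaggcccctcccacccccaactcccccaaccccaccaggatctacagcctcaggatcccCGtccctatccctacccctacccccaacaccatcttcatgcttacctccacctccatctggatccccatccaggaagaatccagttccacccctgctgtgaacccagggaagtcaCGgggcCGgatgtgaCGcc
MAGEA4, chrX:151912224-151912473, plus strand: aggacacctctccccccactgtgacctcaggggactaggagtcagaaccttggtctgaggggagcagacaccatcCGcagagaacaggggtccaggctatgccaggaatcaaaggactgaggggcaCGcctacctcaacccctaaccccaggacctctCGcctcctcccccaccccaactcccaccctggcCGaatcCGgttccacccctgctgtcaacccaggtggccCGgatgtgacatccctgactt
MAGEC2, chrX:142205291-142205540, minus strand: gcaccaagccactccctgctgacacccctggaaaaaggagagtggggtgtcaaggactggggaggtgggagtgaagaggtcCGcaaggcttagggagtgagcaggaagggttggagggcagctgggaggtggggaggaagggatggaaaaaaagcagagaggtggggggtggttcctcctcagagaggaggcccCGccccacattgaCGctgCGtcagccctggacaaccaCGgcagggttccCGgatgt
GAGE2A, chrX:49589246-49589495, plus strand: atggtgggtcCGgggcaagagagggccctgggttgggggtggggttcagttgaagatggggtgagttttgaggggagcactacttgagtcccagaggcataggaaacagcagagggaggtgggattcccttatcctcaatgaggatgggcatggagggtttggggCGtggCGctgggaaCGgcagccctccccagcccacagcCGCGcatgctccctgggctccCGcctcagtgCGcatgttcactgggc
PRAME, chr22:22559266-22559515, minus strand: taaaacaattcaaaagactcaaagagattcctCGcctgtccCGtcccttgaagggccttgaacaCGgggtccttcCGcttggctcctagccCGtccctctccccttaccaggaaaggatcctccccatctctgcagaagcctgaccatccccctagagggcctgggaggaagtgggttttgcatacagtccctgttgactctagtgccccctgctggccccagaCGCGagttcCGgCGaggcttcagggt
The MAGEA3 stretch held 15 CG pairs and that of MAGEA12 held 5, although both genes lie within 71 kb of each other. Both were at 20 counts or more in every library of WM983A, WM278, WM1617 and WM902B. In sensitive and resistant WM983B MAGEA3 had 10 and 8 counts and MAGEA12 2 and 24. MAGEA12 has more than 1 listed start, and its richest window, counted as described next, held 15. The 250 bases before MAGEA6 (chrX:152769690-152769939, minus strand) were identical to those before MAGEA3. The starts shown lie 0 to 96 bases from those of GENCODE release 44. Windows of 300 bases, from 250 before to 50 after the start, were given for 47 of the 63 genes. Taking the window with the most CG pairs for each gene, the median was 15 in the 21 described genes that had one and 12 in the 26 silent genes, against 16 over the 27305 genes of the table. Silent genes reached down to 2 CG pairs (MAGEB4), while no described gene had fewer than 10. Searched on both strands, the GC box GGGCGG was in 25.5% of the 47 genes' windows and in 48.3% of all, CCGGAA, an ETS core with a CG pair, in 10.6% and 20.1%, and TATAAA in 0 of the 47 and in 14% of all. The GC box can share bases with TTCCGG, the other strand of CCGGAA, and a match describes the sequence only. The start of MAGEA12 faces that of CSAG1, and their windows shared 240 bases. In the same way the windows of MAGEA2 and CSAG3 shared 178 bases.

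**Figure D1:**
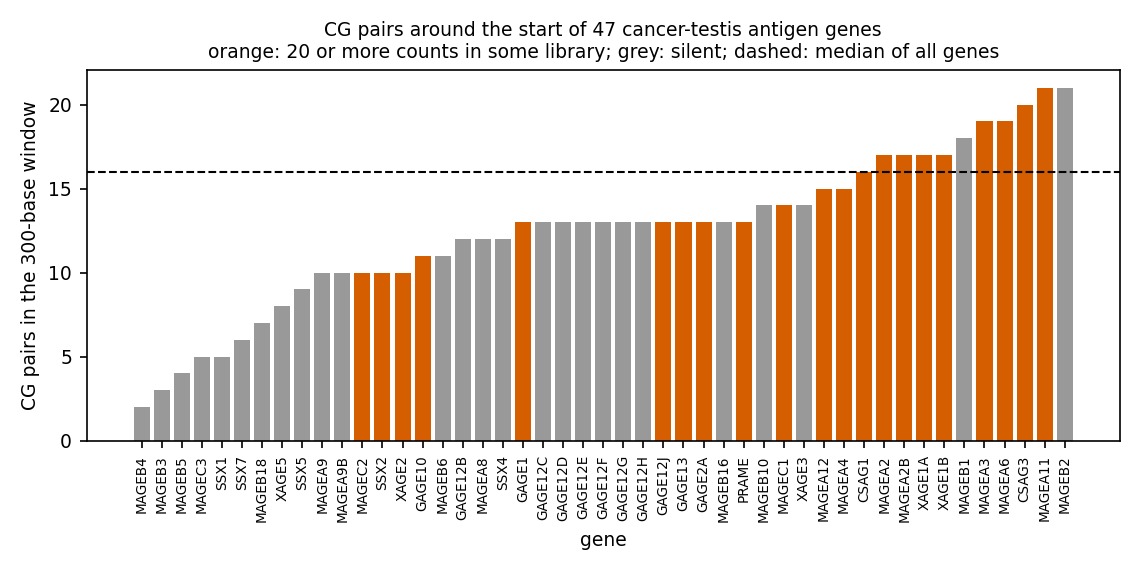
Bars give the number of CG pairs in the 300-base window around the start of each of the 47 genes with a window, in orange for genes with at least 20 counts in some library and in grey for silent ones, and the dashed line marks the median of 16 over all genes. Orange bars run from 10 to 21 and grey bars from 2 to 21.

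The number of expressed genes differed more between lines than between the states of a line. WM278, WM1617 and WM902B expressed 17 to 19 of the genes at 20 counts or more in either state, sensitive WM983A 6, resistant WM983A 8, sensitive WM983B 0 and resistant WM983B 3. Summed over the 63 genes, levels were 1093 CPM (counts relative to the library's total after TMM, edgeR's correction for library composition) in sensitive WM278 and 823 in resistant WM278, 1501 and 1441 in WM1617, 1115 and 878 in WM902B, 101 and 130 in WM983A, and 1.53 and 15.4 in WM983B. In these bulk libraries more cells with a transcript and more transcript per cell cannot be told apart. The libraries held 13693922 to 18033247 counts, and 3 counts, taken as the smallest detectable level, corresponded to 0.174 to 0.22 CPM, which covers counting error only.

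**Figure D2:**
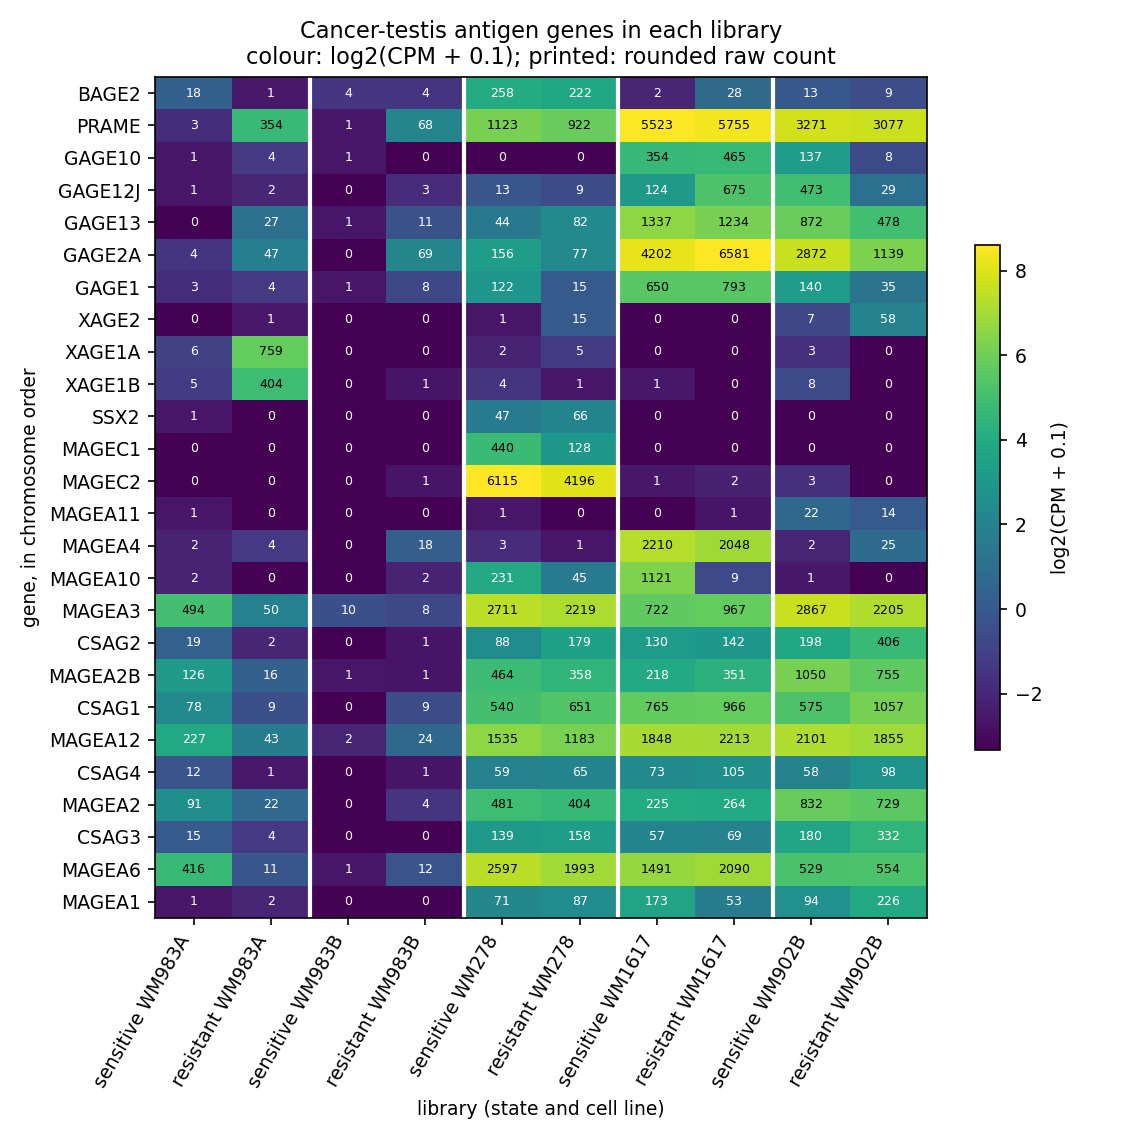
Each row is 1 of the 26 described genes in chromosome order and each column a library, sensitive and resistant side by side for each line. Colour gives log2(CPM + 0.1) and the printed number the rounded raw count, from 0 to 6581. The columns of WM278, WM1617 and WM902B are bright over the lower rows from MAGEA3 to MAGEA1, and those of WM983B are dark throughout.

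PRAME (chromosome 22, the only described gene besides BAGE2 that is not on the X) had 3 counts in sensitive and 354 in resistant WM983A, 1 and 68 in WM983B, 1123 and 922 in WM278, 5523 and 5755 in WM1617, and 3271 and 3077 in WM902B. It was thus high in both states of the same 3 lines and near the detection limit in the sensitive libraries of the other 2. Between states it differed by at most 1.22-fold in WM278, WM1617 and WM902B. In WM983A it was 132-fold higher in the resistant library (95% counting interval 44.8 to 643), and in WM983B 62.8-fold higher (10.9 to 2528). No stretch of 75 bases of PRAME, the length of a read, is shared with another gene, so its counts are not divided among copies. The 68 counts of resistant WM983B were 1.18% of those of resistant WM1617. Whether they came from WM983B cells was not tested, as taken up below.

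The MAGEA genes had the most described members, 9 of 13. MAGEA3, which stimulates the ligase TRIM28, had 494 and 50 counts in sensitive and resistant WM983A, 10 and 8 in WM983B, 2711 and 2219 in WM278, 722 and 967 in WM1617, and 2867 and 2205 in WM902B. MAGEA6, nearly identical to it, had 416 and 11, 1 and 12, 2597 and 1993, 1491 and 2090, and 529 and 554 counts in the same order. MAGEA3 and MAGEA6 share 41.7% and 39.6% of their 75-base stretches with another gene, and how the authors assigned reads that fit several genes is not given in the sources used here. The ratio of MAGEA3 to MAGEA6 counts was 1.04 and 1.11 in sensitive and resistant WM278, 0.484 and 0.463 in WM1617, and 5.42 and 3.98 in WM902B, so the copy with more counts differed between lines and was the same in both states of each.

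MAGEA12, of which 4.89% of stretches are shared, had 227 and 43 counts in WM983A, 2 and 24 in WM983B, 1535 and 1183 in WM278, 1848 and 2213 in WM1617, and 2101 and 1855 in WM902B. MAGEA2B had 126 and 16, 1 and 1, 464 and 358, 218 and 351, and 1050 and 755 counts. MAGEA2, which shares 93.2% of its stretches, mainly with MAGEA2B, had 91 and 22, 0 and 4, 481 and 404, 225 and 264, and 832 and 729. In the sensitive libraries these 3 genes, like MAGEA3, had most counts in WM902B, and MAGEA12 differed from the other 2 in having more counts in WM1617 than in WM278. In the resistant libraries MAGEA12 had most counts in WM1617.
MAGEA1, the first antigen of the family to be described and free of shared stretches, was at 1 and 2 counts in WM983A, 0 and 0 in WM983B, 71 and 87 in WM278, 173 and 53 in WM1617, and 94 and 226 in WM902B. Its resistant library was 3.95-fold lower in WM1617 and 2.35-fold higher in WM902B. MAGEA4 was a gene of WM1617, with 2210 and 2048 counts there. In the other lines it had 2 and 25 counts (WM902B), 0 and 18 (WM983B), 2 and 4 (WM983A) and 3 and 1 (WM278). MAGEA10 was the gene with the largest downward fold within a line. It had 1121 counts in sensitive and 9 in resistant WM1617, a 149-fold lower level, and 231 and 45 in WM278, a 5.2-fold lower level, with 2 and 0 in WM983A, 0 and 2 in WM983B, and 1 and 0 in WM902B. MAGEA10 overlaps a longer non-coding gene, RP11-1007I13.4, with 50 and 4 counts in sensitive and resistant WM1617, and strand use in counting is not given in the sources used here. Of the 75-base stretches of MAGEA10 12.9% are shared with that gene, so part of its reads cannot be told apart. MAGEA11 stayed between 0 and 22 counts, with its highest 2 libraries those of WM902B.

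The CSAG genes lie between the MAGEA genes. CSAG1 had 78 and 9 counts in WM983A, 0 and 9 in WM983B, 540 and 651 in WM278, 765 and 966 in WM1617, and 575 and 1057 in WM902B. CSAG2 had 19 and 2, 0 and 1, 88 and 179, 130 and 142, and 198 and 406 counts. CSAG3 had 15 and 4, 0 and 0, 139 and 158, 57 and 69, and 180 and 332. In the resistant WM902B library the 4 CSAG genes were 1.65-fold to 2.01-fold above the sensitive one, whereas MAGEA3, MAGEA2B, MAGEA12 and MAGEA2 beside them were 1.15-fold to 1.42-fold below it and MAGEA6 was 1.03-fold above it. CSAG4, an annotated pseudogene whose stretches are all shared, had 12 and 1, 0 and 1, 59 and 65, 73 and 105, and 58 and 98 counts. CSAG2 and CSAG3 share 96.3% and 93.5% of their stretches, so the division of counts between these copies is uncertain, and together they were 1.91-fold higher in resistant WM902B.

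From MAGEA3 to MAGEA6 the 9 MAGEA and CSAG genes span 71 kb (chrX:152698767-152769716, GRCh38, GENCODE release 44). Together they had 97 CPM in sensitive and 11.6 in resistant WM983A, 0.928 and 3.69 in WM983B, 544 and 453 in WM278, 391 and 415 in WM1617, and 573 and 535 in WM902B. In WM983A all 9 were lower in the resistant library, by 3.58-fold (CSAG3) to 33.8-fold (MAGEA6), and the sum was 8.37-fold lower. The remaining counts of MAGEA3, MAGEA2B, CSAG1, MAGEA12, MAGEA2 and MAGEA6 there stood at 1.52% to 2.63% of those in sensitive WM902B. Whether they came from the cells of that line was not tested, as taken up below. In WM278, WM1617 and WM902B the sum differed between states by 1.2-fold or less. Over the wider span of the MAGEA genes (chrX:149581653-153183880), 24 other genes had at least 20 counts in some library and 18 of them passed the filter for testing. In edgeR none of the 18 was called between lines after adjustment, and 2, LINC00894 and CD99L2, passed 0.05 between states before adjustment and not after it. Among neighbours that did not pass the filter GABRA3, a GABA receptor subunit gene, had 241 and 184 counts in WM278, 23 and 32 in WM1617 and at most 7 elsewhere. GABRE had another pattern, with 196 and 157 counts in WM278, 0 and 0 in WM1617, and 1 and 138 in WM902B.

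**Figure D3:**
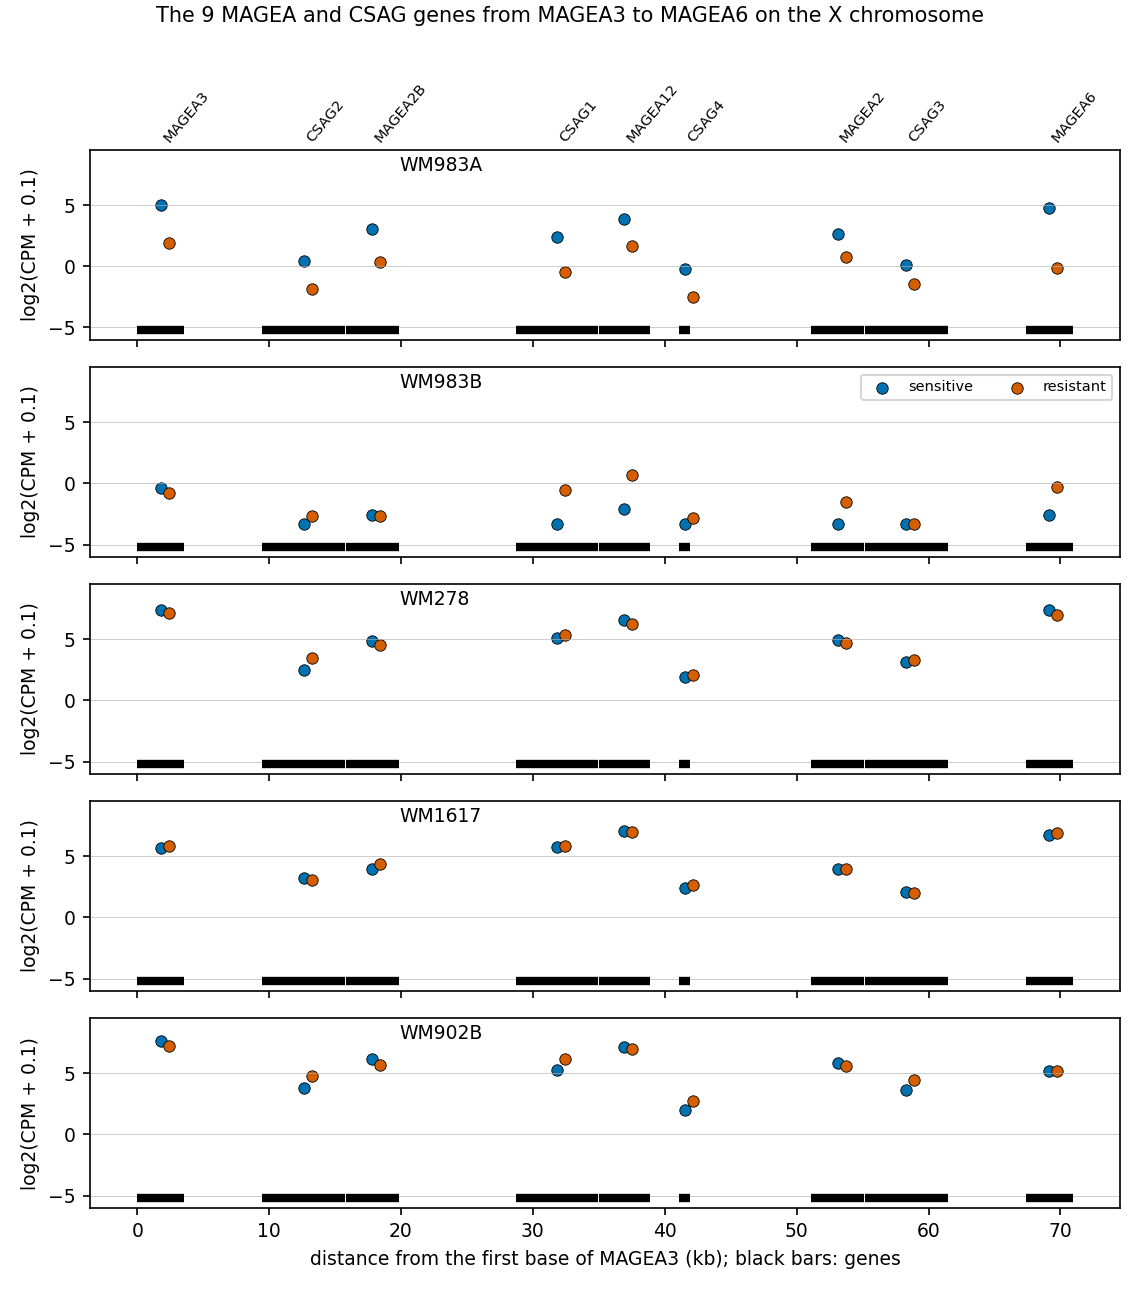
For each line, points give log2(CPM + 0.1) of the 9 genes from MAGEA3 to MAGEA6 against their distance in kb from the first base of MAGEA3, blue for the sensitive and orange for the resistant library, and black bars mark the genes. In WM983A every orange point lies under its blue point, and in WM278, WM1617 and WM902B the pairs lie close together.

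The MAGEC genes marked WM278. MAGEC2, a partner of TRIM28 like MAGEA3, had 6115 counts in sensitive and 4196 in resistant WM278 and at most 3 in any other library: 0 and 0 in WM983A, 0 and 1 in WM983B, 1 and 2 in WM1617, 3 and 0 in WM902B. MAGEC1 had 440 and 128 counts in WM278 and 0 in each of the other 8 libraries, and was 3.45-fold lower in the resistant state. Per kilobase of exon, sensitive WM278 reached 194 CPM per kb for MAGEC2, 96.5 for MAGEA3 and 18.6 for PRAME. WM1617, from the same patient, had under 0.06 for MAGEC2 in either state but 102 and 87.7 for PRAME in the sensitive and resistant libraries. SSX2, a gene fused to SS18 in synovial sarcoma, had 47 and 66 counts in WM278 and at most 1 elsewhere. All of its stretches are shared, mainly with SSX2B, which had 55 and 51 counts there, so the division between these copies is uncertain. BAGE2 (chromosome 21, a transcribed pseudogene of which 96.4% of stretches are shared) had 258 and 222 counts in WM278, 18 and 1 in WM983A, 4 and 4 in WM983B, 2 and 28 in WM1617, and 13 and 9 in WM902B.

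The GAGE genes, a tandem family of small acidic proteins, were highest in WM1617 and WM902B. GAGE2A had 4 and 47 counts in WM983A, 0 and 69 in WM983B, 156 and 77 in WM278, 4202 and 6581 in WM1617, and 2872 and 1139 in WM902B. GAGE13 had 0 and 27, 1 and 11, 44 and 82, 1337 and 1234, and 872 and 478 counts. GAGE1 had 3 and 4, 1 and 8, 122 and 15, 650 and 793, and 140 and 35. All 3 were lower in the resistant library of WM902B, by 2.57-fold, 1.86-fold and 4.12-fold.
GAGE12J had 124 counts in sensitive and 675 in resistant WM1617, 473 and 29 in WM902B, 13 and 9 in WM278, and at most 3 in the WM983 libraries. GAGE10 had 354 and 465 counts in WM1617, 137 and 8 in WM902B, and at most 4 elsewhere. Between 12.1% (GAGE1) and 87.5% (GAGE13) of the stretches of these 5 genes are shared with other genes, so the sum over the 13 GAGE genes is the safer value. That sum was 6675 and 9773 counts in WM1617, 1.2-fold higher after scaling, 4504 and 1690 in WM902B, 2.72-fold lower, 335 and 183 in WM278, 8 and 84 in WM983A, and 4 and 91 in WM983B.

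XAGE1A and XAGE1B, 2 copies that share most of their sequence, were the genes of resistant WM983A. XAGE1A had 6 and 759 counts in sensitive and resistant WM983A, 0 and 0 in WM983B, 2 and 5 in WM278, 0 and 0 in WM1617, and 3 and 0 in WM902B. XAGE1B had 5 and 404, 0 and 1, 4 and 1, 1 and 0, and 8 and 0 counts. Together they were 118-fold higher in resistant WM983A, and no library other than it reached 20 counts of either. XAGE2 had 58 counts in resistant WM902B, 15 in resistant WM278 and at most 7 elsewhere.

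Among the 37 silent genes were all 10 MAGEB and all 3 CTAG genes, 8 of 9 SSX genes and 8 of 13 GAGE genes. The CTAG genes, which include those of NY-ESO-1, an antigen used in T cell therapy, had at most 5 counts. The highest count of any silent gene was 15 (MAGEB6), 33 of the 37 stayed under 10 counts, and 11 had 0 in every library. Copies that share all or nearly all of their stretches, such as CTAG1A and CTAG1B or most GAGE12 genes, may be at low counts through the assignment of shared reads, which was not tested. Just inside the limit of 20 counts were MAGEA11 with 22, XAGE2 with 58 and SSX2 with 66, and just outside MAGEB6 and SSX6 with 15.

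WM278 and WM1617 shared 15 genes at 20 counts or more in their sensitive libraries, 78.9% of the 19 of WM278 and 83.3% of the 18 of WM1617. Over all genes at 20 counts or more these 2 libraries shared 89.1% and 90.4%. MAGEC1, MAGEC2, SSX2 and BAGE2 were above it in WM278 alone and MAGEA4, GAGE10 and GAGE12J in WM1617 alone. WM1617 shared 16 with WM902B, from another donor, 88.9% and 94.1%, beside 93.1% and 94.4% over all genes. No test of these overlaps was made. Sensitive WM983A had 6, sensitive WM983B none, and all 6 were among the genes of each of the other 3 lines. Over all genes those 3 lines shared 91.7% to 92.6% of the genes of sensitive WM983A. In the fit across all genes, edgeR's quasi-likelihood test of whether the 5 lines had 1 level, with both states of a line as its replicates, called 1.46% of 17288 genes at an adjusted p of 0.05. Of the described genes 16 passed the filter on low counts, and 3 of these were called, MAGEA2B (adjusted p = 0.0415), CSAG3 (0.0446) and MAGEA3 (0.0462). The 3 lie in the 71 kb from MAGEA3 to MAGEA6 and share 85.2%, 93.5% and 41.7% of their stretches with other genes. They are therefore not separate evidence. At an unadjusted p of 0.05 the test called 23% of all genes and each of the 16. Each of the 16 had at most 10 counts in sensitive WM983B, and the filter asked for counts in several libraries. A difference between lines was thus built in before the test, and these shares are not evidence for the 16 genes. MAGEC2 and MAGEC1, at 20 counts in WM278 alone, and MAGEA4, at 20 counts in WM1617 and in resistant WM902B, did not pass the filter. The call rested on single lines: without WM983A 13 of 17 genes were called and 9.69% of all genes, without resistant WM983A alone 12 of 17 and 6.42%, and without any of the other 4 lines, or without resistant WM983B alone, 0 of 15 or 16, with at most 0.483% of all genes. With 3 donors in place of 5 lines 0 were called.

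Between the 5 resistant and the 5 sensitive libraries no change was detected in any of the 16 genes. In edgeR's quasi-likelihood test 0 of 17288 genes had an adjusted p of at most 0.05 and 1235 an unadjusted one, and with DESeq2 111 genes passed after adjustment and with limma-voom 0, none of them a cancer-testis antigen gene. A 2-fold change at an unadjusted p of 0.05 was found upward in 3.53% and downward in 0.885% of all genes, and in 0 of the 16 in either direction. In this edgeR fit, which leaves the pairing by line out, standard errors were 1.25 to 1.84, each larger than a 2-fold difference. The log2 fold changes of the 16 ran from -0.49 (GAGE13) to 0.69 (CSAG2), with unadjusted p from 0.639 to 0.996. The median was -0.14, beside 0.03 over all genes. PRAME had a log2 fold change of -0.12 with all libraries in 1 group each and 1.43 ± 1.24 SE (adjusted p = 0.659) with cell line as a block, where each line is compared with itself. Over the 16 genes this block gave standard errors of 0.39 to 1.24 and unadjusted p of at least 0.174, with none called. For the 10 described genes under the filter, exact two-sided permutation tests of 5 against 5 libraries gave unadjusted p of 0.286 (XAGE2) to 1, where 0.00794 is the smallest possible.

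Within lines, where there is no test, genes were compared by the log2 ratio of TMM-normalized counts with 1 added, over the 26 described genes and, as background, the 19666 genes with at least 20 counts in any library. In resistant WM983A 7 of 26 were higher by 2-fold or more, beside 19.2% of all genes, and 12 lower, beside 21.7%. With only the 11 that had 20 counts in that line, 5 were higher and 6 lower, against 19.2% and 20.4%. The 5 higher were PRAME, GAGE2A, GAGE13, XAGE1A and XAGE1B, and the 6 lower were MAGEA3, MAGEA6, MAGEA12, MAGEA2, MAGEA2B and CSAG1. GAGE2A and GAGE13 had 47 and 27 counts there, 1.64% and 3.1% of their counts in sensitive WM902B, as taken up below. The 6 lower genes stood at 1.52% to 2.63% of theirs. In WM983B 11 were higher, beside 18.8%, and 1 lower, beside 12.3%, but 20 counts were reached by 3 genes only, PRAME, GAGE2A and MAGEA12, all higher, against 17.6% and 11.9%.
In WM278 2 were higher (13.6% of all genes) and 5 lower (8.55%), and with 20 counts in the line 1 of 19 was higher, CSAG2, and 4 lower, GAGE1, GAGE2A, MAGEA10 and MAGEC1 (12.2% and 8.12%). WM1617, the line whose whole profile moved least, had 2 higher (3.84%) and 3 lower (5.68%), or with 20 counts BAGE2 and GAGE12J higher and MAGEA1 and MAGEA10 lower of 19 (2.6% and 3.47%). In WM902B 4 were higher (17.1%) and 7 lower (14.5%), or with 20 counts 4 of 19 each way (16% and 13%): CSAG2, MAGEA1, MAGEA4 and XAGE2 higher, GAGE1, GAGE10, GAGE12J and GAGE2A lower. MAGEA4 had 25 counts in resistant WM902B, 1.22% of its count in resistant WM1617. The 10 genes with at least 500 counts in resistant WM1617 had a median share of 32.6%. Of all 4298 genes with at least 1000 counts in resistant WM1617, the lowest stood at 0.0679% in resistant WM902B and the tenth lowest at 0.148%. Whether the MAGEA4 counts came from WM902B cells was not tested. No described gene was higher, and none lower, in the resistant library of all 5 lines, while 1090 and 1003 of the 19666 genes were. Of the 26, 14 were 2-fold higher in 1 line and 2-fold lower in another, beside 18.1% of the 19666 genes, and several of the 14 rested on a few counts. With at least 20 counts in each of those lines there were 4 (GAGE12J, GAGE2A, MAGEA1 and MAGEA12), beside 10.6% of all genes.

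**Figure D4:**
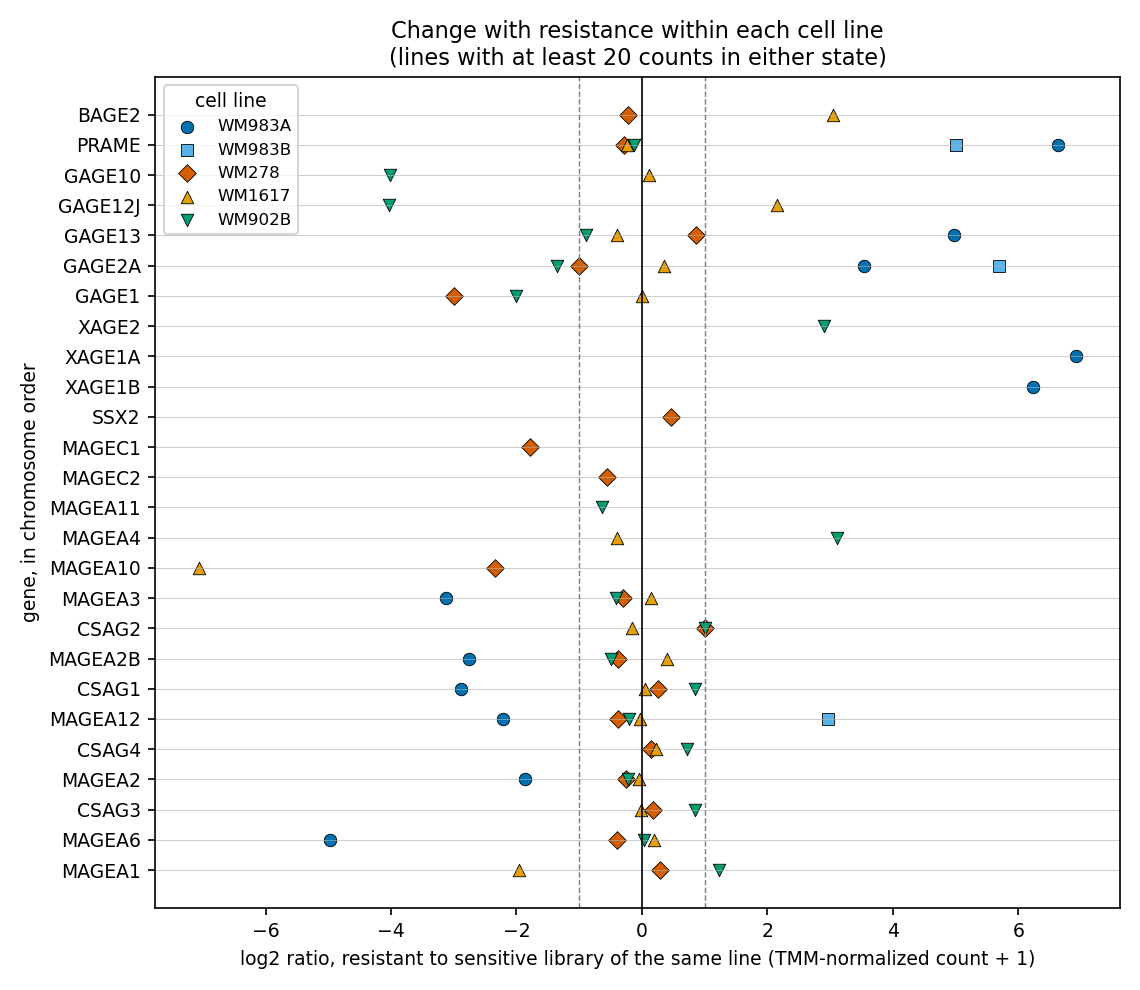
For each line, points give the log2 ratio between resistant and sensitive library for the 26 described genes, drawn where that line had at least 20 counts in either state, and dashed lines mark 2-fold. The 6 MAGEA and CSAG genes drawn in WM983A lie between -1.86 and -4.97, and XAGE1A reaches 6.92 there. MAGEA10 lies at -7.06 in WM1617 and -2.35 in WM278, MAGEA1 at -1.96 in WM1617 and 1.23 in WM902B, and MAGEA4 at 3.11 in WM902B, on 2 and 25 counts.

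The low counts of resistant WM983B were set beside those of WM1617, whose sensitive library was its closest match among the sensitive ones over these genes. For the 10 genes with at least 500 counts in resistant WM1617, resistant WM983B held 0.495% (GAGE12J) to 1.18% (PRAME) of that count, with a median of 0.926%, MAGEA4 at 0.879% and GAGE2A at 1.05%. Against sensitive WM1617 the 10 genes with at least 500 counts there stood at 0.178% (MAGEA10) to 1.65% (GAGE2A), with a median of 1.14%. Outside the family, 10 genes had at least 1000 counts in resistant WM1617 and at most 3 in sensitive WM983B, and in resistant WM983B they stood at a median of 0.922%, with quartiles of 0.829% and 1.07% and a range of 0.292% to 99.1%. Of the 8 melanocyte markers MLANA, PMEL and TYR stood at 0.96%, 1.23% and 1.59%, SOX10 and DCT at 3.41% and 4.27%, MITF and S100B at 6.39% and 7.7%, and TYRP1, low in WM1617, at 284%. MAGEC2 gave 0.0238% of its resistant WM278 count. Whether these counts came from WM983B cells was not tested, so the higher values of PRAME, GAGE2A and MAGEA12 in this library stand with that reserve.
In resistant WM983A, whose profile over all genes was closer to sensitive WM902B (Pearson's r of 0.813 across genes) than to its own sensitive line (0.787), the 9 genes with 500 counts in sensitive WM902B stood at 1.52% to 10.8% of it. PRAME was the one at 10.8%, GAGE13 was at 3.1%, and the other 7 were at 1.52% to 2.63%, with 6 of the 8 melanocyte markers at 1.77% (SOX10) to 2.13% (MLANA), MITF at 7.42% and TYRP1 at 9.09% on 1 count. Of all 3762 genes with at least 1000 counts in sensitive WM902B, the lowest stood at 1.41%. XAGE1A and XAGE1B had 3 and 8 counts in sensitive WM902B, so their counts in resistant WM983A had no counterpart there. Whether resistant WM983A descends from sensitive WM983A cells was not tested. Whether its counts of GAGE2A, GAGE13 and the MAGEA and CSAG genes came from the cells of that line was not tested either. The higher values of GAGE2A and GAGE13 there, and the sizes of the MAGEA and CSAG folds, stand with that reserve. Over the 26 genes, resistant WM278, WM1617 and WM902B were closest to their own sensitive library (r across genes of 0.945, 0.927 and 0.903), resistant WM983A to WM902B (0.455) and resistant WM983B to WM1617 (0.748).

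**Figure D5:**
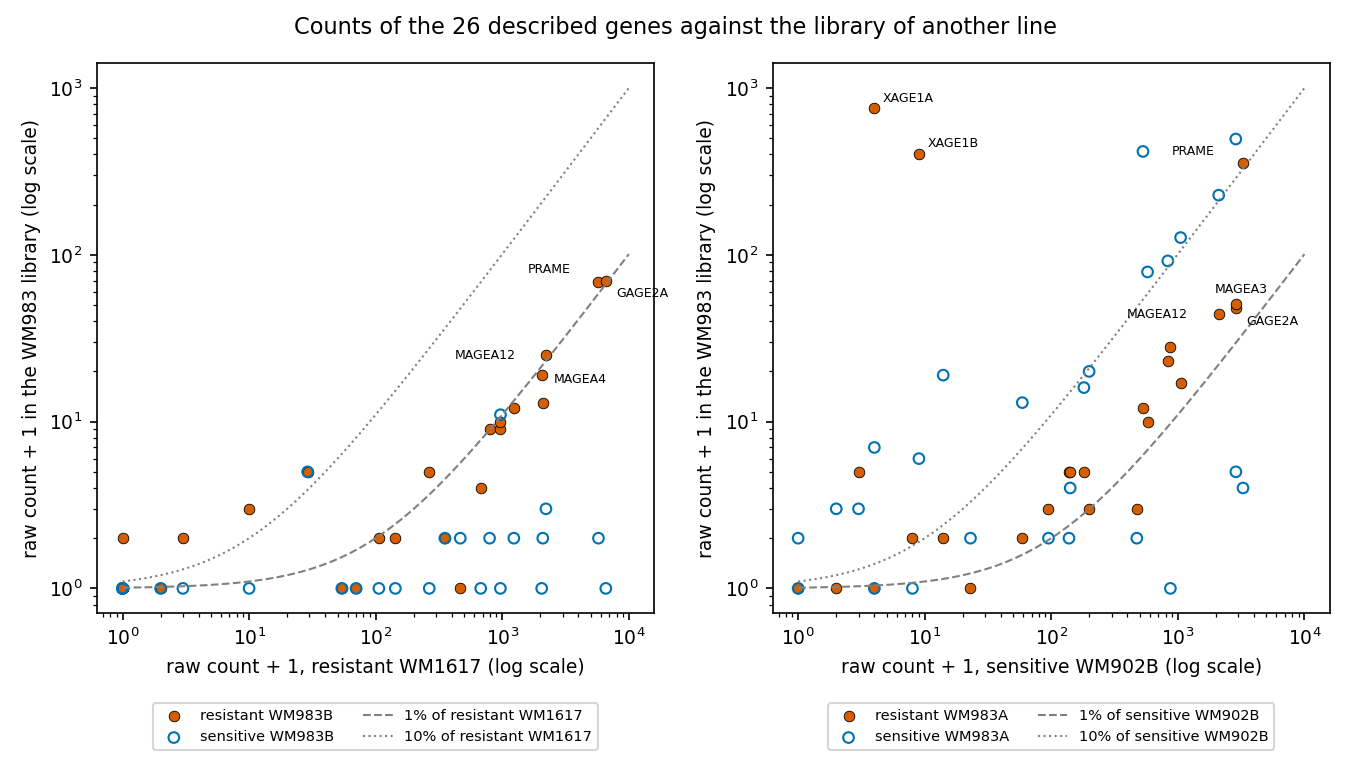
Raw counts plus 1 of the 26 described genes on log axes, in resistant (orange) and sensitive (blue) WM983B against resistant WM1617 on the left, and in resistant and sensitive WM983A against sensitive WM902B on the right. On the left the orange points with high counts lie along the 1% line. On the right XAGE1A, XAGE1B and PRAME stand above the rest of the orange points.

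Between states none of the related genes listed next was called after adjustment in edgeR, with or without cell line as a block, and between lines NDN of the ubiquitous MAGE family (adjusted p = 0.0398) and TET1, a DNA demethylation enzyme (adjusted p = 0.0415), were called. Of 12 genes of the ubiquitous MAGE family, which are expressed in many tissues, 10 were tested and 1 was higher at an unadjusted p of 0.05, MAGEE1 (log2 fold change 1.81 ± 0.63 SE, adjusted p = 0.63), with MAGED4B at 0.74 and TRO at 0.77, and the median was 0.48 beside 0.03 over all genes. Without WM983A MAGEE1 was at 1.12 and no longer passed. With cell line as a block MAGEE1 (1.90, adjusted p = 0.464), MAGED4 (1.77, adjusted p = 0.461) and MAGED4B (2.08, adjusted p = 0.467) passed 0.05 before adjustment. Of 36 genes of DNA methylation and silencing, 34 were tested and 0 had such a p, with a median of -0.00. The largest differences were -0.62 for EZH2, the polycomb methyltransferase, 0.60 for ATRX, a chromatin remodeller, and -0.45 for DNMT1, the maintenance DNA methyltransferase (adjusted p = 0.742, adjusted p = 0.741 and adjusted p = 0.758). With the block 2 of the 34 passed 0.05 before adjustment, EZH2 (-0.71 ± 0.22 SE, adjusted p = 0.461) and ATRX (0.66 ± 0.21 SE, adjusted p = 0.461). In fits without the block that left out a line, DNMT1 passed without WM983A (-0.66), EZH2 without WM983B (-0.84) and ATRX without WM278 (0.83), before adjustment. Of 17 partners of the antigens, such as ligases and retinoid receptors, 16 were tested and RXRA, a retinoid receptor, was higher (0.84 ± 0.27 SE, adjusted p = 0.63), with RARB at 0.69 and SKP2 at -0.68, and the median was -0.14. RXRA no longer passed without WM983A (0.58), and with the block both RXRA (0.83, adjusted p = 0.461) and SKP2 (-0.80, adjusted p = 0.461) passed before adjustment. Of 55 other germline genes 23 had 20 counts in some library and 3 were tested, SYCP3 at 0.06, POTEE at 0.23 and CTCFL, a germline paralogue of CTCF, at -2.67 (adjusted p = 0.744), with none past 0.05. Among those not tested, SPANXB1 had 0 and 153 counts in sensitive and resistant WM983A, and HORMAD1 0 and 72. In WM1617 TEX15 had 271 and 5 counts and CT45A1 306 and 27.

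Of 6 germ cell markers SYCP3 alone reached 20 counts, DAZL, PRM1 and PRM2 were at 0 in every library and DDX4 and ACR at 1 or less, and their sum was 2.88 to 5.72 CPM in sensitive and 2.99 to 6.54 CPM in resistant libraries. Melanocyte lineage markers, which check the labelled cell type, summed to 432 (WM278) to 4450 CPM in the sensitive libraries and to 85.8 (WM983A) to 4482 CPM in the resistant ones. In resistant WM983A, WM983B and WM902B they stood at 85.8, 138 and 230 CPM, against 3506, 2036 and 2965 CPM in the sensitive ones, and 1 of the 8 was lower at an unadjusted p of 0.05, TYRP1 (log2 fold change -5.21, adjusted p = 0.63), with TYR at -1.51 and PMEL at -1.42. TYRP1 lost this call with cell line as a block (-1.71), in limma-voom (-2.10) and without WM983B (-2.74), and it had more counts in the resistant library of WM278 (4 and 37) and WM902B (11 and 22). With the block TYR (-3.92, adjusted p = 0.461) passed 0.05 before adjustment in its place. In WM902B, where this sum was lower, PRAME, MAGEA3 and MAGEA12 stayed within 1.33-fold, while the GAGE genes together were 2.72-fold lower. Among the sensitive lines WM278 had the most antigen genes and the lowest sum. The part of this sum in the results was not tested. SOX10, the factor that defines the lineage, was at 84 counts in resistant WM983A and 10 in resistant WM902B, and at 4629 or more in the 5 sensitive libraries. Keratinocyte markers summed to 0.335 to 19.8 CPM over all libraries, highest in resistant WM983B with 308 counts of TP63, and with KRT1 at 0 in each, fibroblast markers to 0.954 to 147 CPM, with PDGFRA at 2.99, FAP at 1.55 and LUM at -0.66 in log2 fold change, and leukocyte markers to 0.126 to 5.17 CPM, with LYZ at -1.55, or -3.40 with the block (adjusted p = 0.466), where it passed 0.05 before adjustment. The part of these markers in the results was not tested.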

How the data were processed

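RNA-Seq of 10 melanoma cell lines was analysed, 1 library per line and state. Oligo-dT selected libraries were sequenced single-end for 75 cycles. Per the authors, HISAT2 alignment to GRCh38 was followed by gene quantification in StrandNGS. Versions and the handling of reads that fit several genes are not given in the sources used here. The raw values deposited by the authors are expected counts with fractions. The normalized values they deposited are log2 ratios to the sensitive library of the same line, and were used only to recover 455 raw values held as dates, 0 of them in the genes described.

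Expected counts were rounded, filtered with filterByExpr by condition, normalized by TMM and tested in edgeR 4.0.16 (glmQLFit, glmQLFTest) over all genes, with Benjamini-Hochberg adjustment, in R 4.3.3, limma 3.58.1 and DESeq2 1.42.0. The other values came from Python 3.11.15 (scipy 1.17.1, numpy 2.4.6, matplotlib 3.10.9, pandas 2.3.3), with exact conditional binomial intervals for ratios with 1 to 3 counts. The tests were checked on simulated data drawn with 1 fixed dispersion for all genes, where lines differed in a set of genes only. The check therefore does not show how the tests do with the spread between these lines. Lines of 1 name are, per the labels, the same cell line before and after selection, and were paired on that ground. For WM983A the values leave this unsupported. Deviations from the group means correlated at -0.06 (WM983A), 0.54, 0.68, 0.67 and 0.38 (WM983B, WM278, WM1617, WM902B) over 17288 genes. Nothing says that libraries within a state were independent cultures beyond the line. The p-values between states rest on the spread between these lines or, with the block, on the spread of the differences within lines. Those between lines rest on the difference between the states of a line. Shared 75-base stretches were counted against GENCODE release 44.

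The members and lists were chosen with earlier results of these data known. Named were described genes, with each library's count where any reached 100, list genes with an unadjusted p of at most 0.05 or the 3 largest log2 fold changes, and neighbours of the MAGEA genes. KRT1, TP63, SPANXB1, HORMAD1, TEX15, CT45A1 and genes of the silent group were named after their values were seen. Leaving out resistant WM983B and the counts within single lines were added after seeing the data.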

Additional observations from a re-analysis of the deposited data

Results flagged for a closer look

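In groups of 5 libraries a library was called outlying where its gap to the nearest other on the log2 scale, divided by the range of the group, passed Dixon's 95% critical value of 0.71. Chance gives about 1 such group in 20 where groups are independent and chosen without regard to the values, and of 48 groups checked 11 held one. Neither holds here: a gene was described if any 1 library reached 20 counts, which favours genes with a single high library, and both states of a line and near-identical copies were counted. The number is therefore not set against chance. WM278 was the highest in 6 of them. For MAGEC1 the ratio of gap to range was 1.000 in the sensitive (440 counts) and 1.000 in the resistant libraries (128 counts). For MAGEC2 it was 0.837 with 6115 counts and 0.877 with 4196, and for SSX2, whose stretches are all shared, 0.819 with 47 counts and 1.000 with 66.

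Resistant WM983A stood apart for XAGE1A (0.739, 759 counts) and XAGE1B (0.890, 404 counts), which share most of their sequence and are not separate evidence. Sensitive WM1617 stood apart for MAGEA4 (0.825, 2210 counts). Sensitive WM902B stood apart for MAGEA11 (0.781, 22 counts). Sensitive WM983B was the only low library, for MAGEA6 (0.749, 1 count).

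For BAGE2 the resistant library was lower in all 3 lines of primary origin and higher in both metastatic ones, with a difference between the mean log2 ratios of -2.82. The difference between origins was not tested, and the ratio in WM983B was 0.05 on 4 counts in each state.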

How the results depend on the processing

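Counts of genes called within lines moved by over 1.5 times under some settings. A pseudocount of 5 gave 7 genes higher and 0 lower in WM983B and 1 higher and 3 lower in WM278. A 4-fold threshold gave 0 lower in WM983B, 1 higher and 2 lower in WM278, 1 lower in WM1617 and 2 higher in WM902B. Restricting to genes with 20 counts in the line gave 6 lower in WM983A, 3 higher and 0 lower in WM983B, 1 higher in WM278 and 4 lower in WM902B, because fewer genes enter. 

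Between lines, calls numbered 0 with 3 donors in place of 5 lines, 8 with limma-voom and 21 of 52 without a filter on low counts, and from 0 to 13 with a line or a library left out. With at least 10 counts in every library no antigen gene was left to test. Between states the number of adjusted calls was 0 in every setting run. At an unadjusted p of 0.05 and 2-fold it was 0, except for 3 of 52 without a filter (XAGE1A and XAGE1B higher, MAGEA10 lower). From 0 to 0 were called with a line or a library left out.

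With cell line as a replicate block the number of calls stayed at 0, while log2 fold changes reversed for 5 of the 16 genes, PRAME (1.43), GAGE13 (0.89), GAGE2A (0.81), CSAG3 (-0.02) and CSAG4 (-0.02), and for LUM (0.06). For limma-voom the signs were compared for PRAME, GAGE13, CSAG2 and the named list genes only. It reversed PRAME (2.37), GAGE13 (1.78), LUM (0.05) and FAP (-0.23). Leaving out a line or library moved PRAME from -0.19 to 0.19, with 0.04, 0.14 and 0.19 as the reversed values, SYCP3 down to -0.21 and PDGFRA over a range of -0.34 to 3.91. SSX2 turned to 0.03 with a pseudocount of 5. Without WM1617, in edgeR without the block, SKP2 (-0.96), TYR (-5.66), PMEL (-5.59) and LYZ (-5.53) passed 0.05 before adjustment. PDGFRA (3.91) did so without WM278. The cause of these moves was not tested. The resistant WM983A library held 13693922 counts, and levels under 0.22 CPM were not detectable there.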
